A study of Mus musculus with 38 samples.

Results

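The 10 genes followed here make or sense the vasoactive mediators with which blood vessels set their tone: Nos3, Edn1, Ednra, Ednrb, Ece1, Ptgs1, Ptgs2, Ptgis, Ace and Agtr1a. They were chosen by symbol, and all 10 were found among the 35682 gene rows of the count table. Endothelial nitric oxide synthase (eNOS, encoded by Nos3) makes nitric oxide, which relaxes smooth muscle through cyclic GMP. Endothelin-1 (Edn1) is a constrictor peptide that endothelin converting enzyme (Ece1) cuts from its precursor. It acts on the ETA receptor (Ednra) of contractile cells and on the ETB receptor (Ednrb), through which endothelial cells release dilators. The cyclooxygenases (Ptgs1 and Ptgs2) feed prostacyclin synthase (Ptgis), which makes the dilator prostacyclin, and angiotensin converting enzyme (Ace) makes angiotensin II, which acts on the type 1 receptor (Agtr1a).

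The libraries came from hearts of male C57BL/6 mice, 8 to 12 weeks old, that received a daily oral gavage for 6 weeks. Sham mice received vehicle (DMSO in saline) and had the chest opened without coronary occlusion. Control-AMI mice received vehicle, and their left anterior descending coronary artery was tied for 30 min and then reperfused for 2 h. EMPA-Pre-AMI mice received empagliflozin, an inhibitor of the sodium-glucose cotransporter 2, at 10 mg/kg per day before the same ischemia and reperfusion. No group received empagliflozin without infarction, so each drug comparison is one among infarcted hearts. Cardiomyocytes were pelleted at low speed and not sorted, endothelial cells were sorted as CD45- CD31+ cells, and fibroblasts as CD45- CD31- CD90+ cells. Each library pooled 2 hearts. Per the study's methods, cardiomyocytes came from the pellet and the sorted cells from the supernatant of the same digested hearts. Libraries of different populations can thus share hearts, and the main fits across populations treated them as independent. There were 38 libraries. In the order Sham, Control-AMI and EMPA-Pre-AMI they numbered 4, 5 and 4 for cardiomyocytes, 4, 4 and 5 for endothelial cells and 4, 4 and 4 for fibroblasts.

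Total counts were 2031716 to 4509284 in cardiomyocyte libraries, 1352514 to 2195308 in endothelial libraries and 1946056 to 2821373 in fibroblast libraries. Mitochondrial genes held 46.6 to 66.0% of counts in cardiomyocyte libraries, 4.52 to 14.6% in endothelial and 3.47 to 12.5% in fibroblast libraries. Levels below are in CPM, the usual per-library scaling of counts by total and TMM factor. On this scale 3 counts correspond to 1.64 to 3.51 CPM in cardiomyocytes, 0.873 to 1.30 CPM in endothelial cells and 0.692 to 1.08 CPM in fibroblasts. Cardiomyocyte libraries were thus the least sensitive for these genes. Since 3′ tags were counted, levels are compared between libraries and never between genes. Each marker list was highest in the population it marks: 9 cardiomyocyte markers summed to at least 40652 CPM in every cardiomyocyte library, 10 endothelial markers to at least 4731 CPM in every endothelial library and 12 fibroblast markers to at least 21760 CPM in every fibroblast library. Each of these lists was also counted at a lower level in every library of the other populations. Cardiomyocyte libraries held 1138 to 2656 CPM of endothelial markers, 851 to 7031 CPM of fibroblast markers and 1815 to 3563 CPM of mural cell markers (pericytes and smooth muscle). In endothelial libraries the fibroblast markers summed to 537 to 1605 CPM in Sham, 2210 to 9334 CPM in Control-AMI and 483 to 949 CPM in EMPA-Pre-AMI. Control-AMI endothelial libraries thus lay above both other groups in fibroblast markers, and they lay lowest in endothelial markers, at 4731 to 6441 CPM against 9069 to 9872 CPM in Sham and 6507 to 9308 CPM in EMPA-Pre-AMI. Leukocyte markers summed to 3.98 to 24.8 CPM in Sham endothelial libraries, 12.2 to 87.9 CPM in EMPA-Pre-AMI and 23.6 to 487 CPM in Control-AMI, where replicate 3 was highest and also had the largest share of mitochondrial counts among endothelial libraries, 14.6%. These values stand beside every cardiomyocyte and endothelial result below, and their part in those results was not tested. A lower or higher level in such bulk libraries can come from the number of cells of a type or from the RNA in each cell, which cannot be told apart.

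In GRCm39 coordinates the nitric oxide and endothelin genes are Nos3 (ENSMUSG00000028978) at chr5:24569787-24589475 on the plus strand, Edn1 (ENSMUSG00000021367) at chr13:42446301-42461466 on the plus strand, Ednra (ENSMUSG00000031616) at chr8:78386590-78451552 on the minus strand, Ednrb (ENSMUSG00000022122) at chr14:104052053-104081900 on the minus strand and Ece1 (ENSMUSG00000057530) at chr4:137589530-137692542 on the plus strand. The prostanoid and angiotensin genes are Ptgs1 (ENSMUSG00000047250) at chr2:36120438-36142287 on the plus strand, Ptgs2 (ENSMUSG00000032487) at chr1:149975194-149983978 on the plus strand, Ptgis (ENSMUSG00000017969) at chr2:167033725-167083018 on the minus strand, Ace (ENSMUSG00000020681) at chr11:105858469-105880790 on the plus strand and Agtr1a (ENSMUSG00000049115) at chr13:30518942-30566850 on the plus strand. Tags come from the 3′ end of a transcript. Within the last 500 bases of the gene, Nos3 shares sequence with an exon of Atg9b, Ednra with Gm45714 and Ptgis with 1110018N20Rik, each on the opposite strand. The kit keeps the strand, but the strand setting used in counting is not given in the sources used here, so reads of these 3 genes are uncertain to that extent.

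Promoters are shown for 3 of the members on which the comparisons between populations turned: Edn1 and Ptgs1, which were higher in endothelial cells than in fibroblasts, and Ace, which was higher in fibroblasts. RefSeq windows of 300 bases (250 before the start and 50 from it, GRCm38.p6) were found for 7 of the 10 members, and Nos3, Ptgis and Agtr1a were not among them. Capitals mark matches, on either strand, to AGATAA, bound by GATA factors, CCGGAA, bound by ETS factors, TGANTCA, bound by AP-1, TATAAA, the TATA box, or CCNCNCCC, bound by Krüppel-like factors. The coordinates belong to that older build and are not to be mixed with the GRCm39 coordinates above.
Edn1 (chr13:42301226-42301525, plus strand): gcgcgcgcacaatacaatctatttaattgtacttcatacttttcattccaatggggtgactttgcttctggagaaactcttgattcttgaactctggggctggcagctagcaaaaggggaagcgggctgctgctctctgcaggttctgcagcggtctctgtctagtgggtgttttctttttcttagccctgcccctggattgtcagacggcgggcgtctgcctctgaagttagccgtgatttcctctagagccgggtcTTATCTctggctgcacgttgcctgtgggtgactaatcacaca
Ptgs1 (chr2:36230176-36230475, plus strand): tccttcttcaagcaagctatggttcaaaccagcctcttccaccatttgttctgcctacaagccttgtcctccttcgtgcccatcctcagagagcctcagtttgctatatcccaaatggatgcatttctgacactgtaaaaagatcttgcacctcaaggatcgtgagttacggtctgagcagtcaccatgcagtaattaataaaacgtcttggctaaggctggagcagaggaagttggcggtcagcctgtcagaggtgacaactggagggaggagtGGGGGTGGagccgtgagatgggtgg
Ace (chr11:105967698-105967997, plus strand): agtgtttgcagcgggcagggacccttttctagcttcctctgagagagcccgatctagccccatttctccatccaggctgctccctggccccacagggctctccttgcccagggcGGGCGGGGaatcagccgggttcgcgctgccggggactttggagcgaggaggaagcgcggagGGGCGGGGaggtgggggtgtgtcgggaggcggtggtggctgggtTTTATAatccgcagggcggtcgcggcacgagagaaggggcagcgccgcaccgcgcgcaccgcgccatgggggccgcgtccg

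The Edn1 window held the GATA motif once, as TTATCT on the other strand, a motif found in 11.2% of all 32851 windows of that table. The Ace window printed above held the TATA box once, found in 13.6% of windows, and the Krüppel-like factor motif at 2 places. The latter motif was common, in 49.5% of windows, and the Ptgs1 window held it once. A further Ace window (chr11:105974939-105975238, plus strand), not printed, held none of these motifs. Neither the ETS motif (14.9% of windows) nor the AP-1 motif (7.81%) was found in any of the 11 windows of the 7 members. These matches describe letters and are not binding sites.

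The first question was in which population each gene was found in undamaged hearts. In Sham libraries 5 members were higher in endothelial cells than in fibroblasts (Nos3, Edn1, Ednrb, Ece1 and Ptgs1) and 3 were lower (Ednra, Ptgis and Ace), of 9 tested. The median difference over the 9 was 1.27 on the log2 scale against -0.01 over all genes. Populations differed widely throughout, with 40.7% of all genes passing the same threshold, a false discovery rate (FDR) below 0.05 in edgeR's quasi-likelihood test. Against cardiomyocytes, endothelial cells were higher in the same 5 members and lower in Ednra and Ptgis, where 57.5% of all genes passed. Fibroblasts were higher than cardiomyocytes in Ece1, Ptgs2, Ptgis and Ace and lower in Nos3 and Ptgs1, where 52.2% of all genes passed. The unsorted Sham cardiomyocyte libraries held 1524 to 2126 CPM of endothelial markers and 2776 to 3007 CPM of mural cell markers. Sham fibroblast libraries held 106 to 484 CPM of endothelial markers, and Sham endothelial libraries 442 to 698 CPM of mural cell markers. The part of this in the cardiomyocyte levels was not tested.

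**Figure D1:**
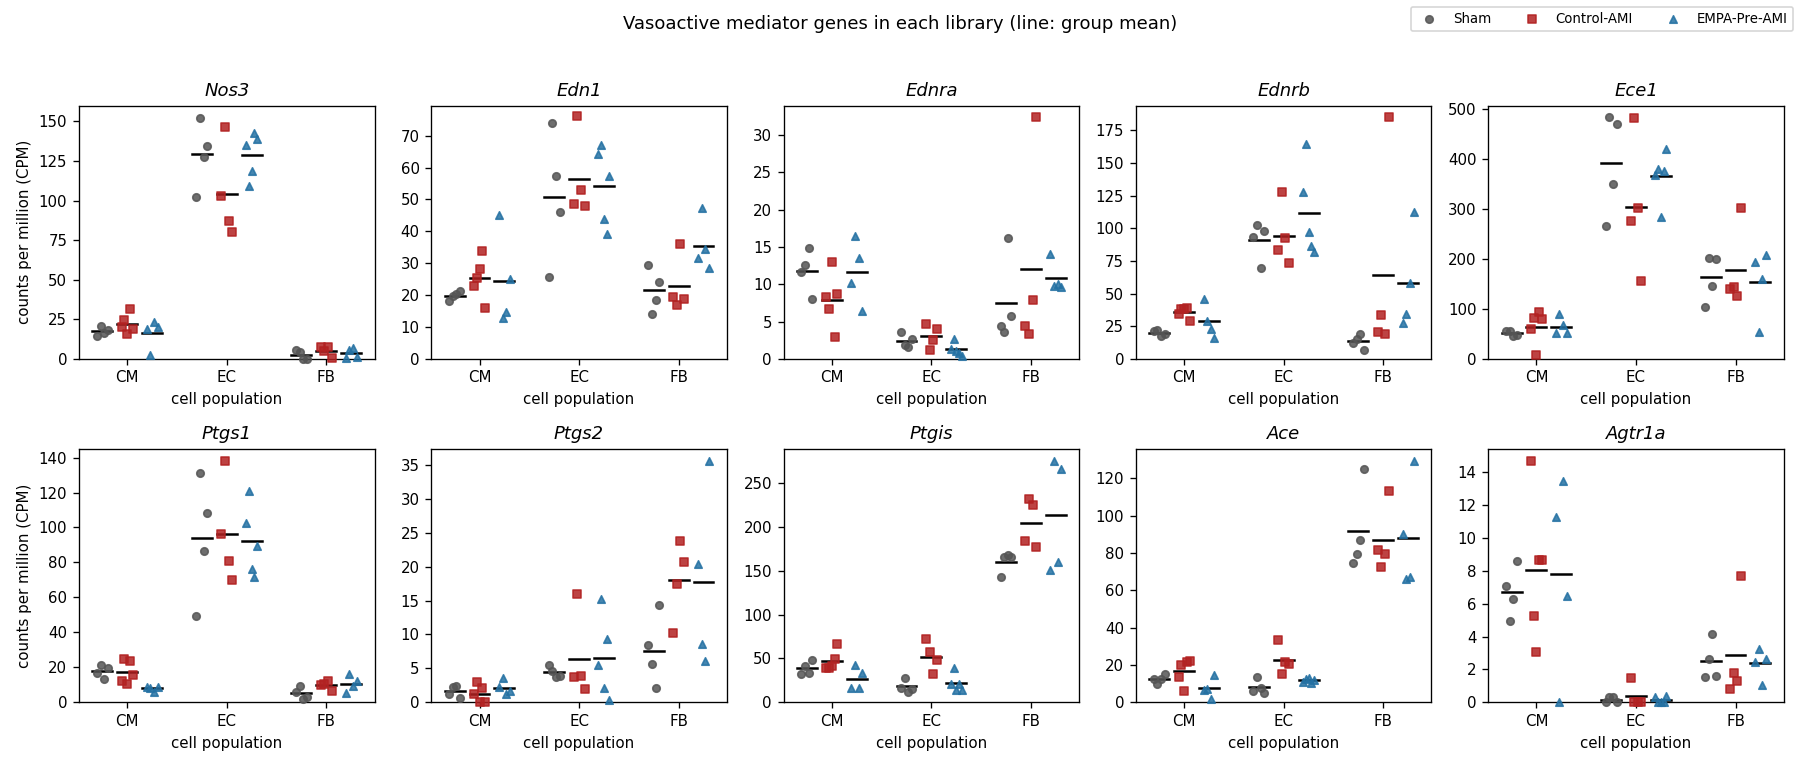
Each panel plots 1 gene in CPM on a linear axis from 0, with 1 point per library in cardiomyocytes (CM), endothelial cells (EC) and fibroblasts (FB), grouped as Sham (grey circles), Control-AMI (red squares) and EMPA-Pre-AMI (blue triangles), and a line at each group mean. Among the Sham circles Nos3, Ednrb, Ece1 and Ptgs1 stand highest in endothelial cells and Ptgis and Ace in fibroblasts. The highest single point of Ednrb is a fibroblast Control-AMI library at 185 CPM, and the red squares of Ptgis and Ace in endothelial cells lie above the Sham circles.

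Nos3 was the most unequal member between endothelial cells and fibroblasts. It measured 103, 152, 128 and 135 CPM in the 4 Sham endothelial libraries and 14.1, 20.8, 16.4 and 18.4 CPM in the Sham cardiomyocyte libraries. Sham fibroblast libraries gave 5.87 and 4.42 CPM in replicates 1 and 2 and no count in replicates 3 and 4. The populations did not overlap, and the log2 difference of endothelial cells from fibroblasts was 5.68 (SE 0.62, FDR = 1.27e-05). Replicates 1 and 2 were also the Sham fibroblast libraries with more endothelial marker counts, 484 and 444 CPM against 110 and 106 CPM in replicates 3 and 4. Across all 12 fibroblast libraries Nos3 was at 4.42 CPM or more in the 7 with at least 444 CPM of endothelial markers and at 1.33 CPM or less in the 5 with at most 164 CPM. The part of that in the Nos3 level of fibroblasts was not tested. Without fibroblast Sham libraries 1 and 2, all Sham fibroblast counts of Nos3 are 0, so no fold is given there. Nos3 was among the genes used by the study to mark endothelial cells, and its place in them is not an independent result.

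Ptgs1, the constitutive cyclooxygenase, followed the same order. It measured 49.6, 131, 86.7 and 108 CPM in Sham endothelial cells, 16.7, 21.3, 13.3 and 19.5 CPM in cardiomyocytes and 5.87, 9.13, 2.07 and 3.23 CPM in fibroblasts. No population overlapped another. Endothelial cells were 18.9-fold above fibroblasts (log2 4.24, SE 0.37, FDR = 6.22e-08), and the log2 difference was 5.15 without fibroblast replicates 1 and 2, the libraries with more endothelial markers. Endothelial cells were 5.37-fold above cardiomyocytes (log2 2.42, SE 0.34, FDR = 1.35e-05).

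Of the 4 endothelin genes, Edn1, Ece1 and Ednrb were highest in Sham endothelial cells and Ednra was lowest there. The peptide Edn1 measured 25.5, 74.1, 57.3 and 46.0 CPM in Sham endothelial cells, where the lowest library lay inside the fibroblast range of 14.1 to 29.6 CPM. Its mean there was 2.41-fold that of fibroblasts (log2 1.27, SE 0.27, FDR = 0.000766), while fibroblasts and cardiomyocytes, at means of 21.5 and 19.8 CPM, did not pass the test (FDR = 0.744). The enzyme Ece1 fell in 3 steps that did not overlap, from a mean of 392 ± 103 CPM (SD, n = 4) in endothelial cells to 163 ± 47.3 CPM in fibroblasts and 51.2 ± 5.53 CPM in cardiomyocytes. The ETB receptor Ednrb measured 93.1, 102, 69.3 and 98.2 CPM in endothelial cells, at least 6.92 and at most 18.9 CPM in fibroblasts and 17.2 to 22.4 CPM in cardiomyocytes. Fibroblasts and cardiomyocytes overlapped and did not differ beyond the threshold (FDR = 0.0647). The ETA receptor Ednra ran the other way. It was lowest in endothelial cells, at 1.53 to 3.65 CPM, where a library held only 5 to 10 counts, and reached 8.04 to 14.9 CPM in cardiomyocytes (log2 -2.25, SE 0.51, FDR = 0.000917). In fibroblasts Ednra measured 4.34, 3.53, 16.2 and 5.77 CPM, and the library with 16.2 CPM also held the most mural cell markers of the group, 2058 CPM. Without that library the difference from endothelial cells, called with it (FDR = 0.0138), no longer passed (FDR = 0.118).

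Ptgis and Ace were the fibroblast members. Ptgis, which completes prostacyclin, measured 142, 166, 168 and 165 CPM in Sham fibroblasts, 32.1, 41.6, 33.6 and 48.2 CPM in cardiomyocytes and 16.8, 28.1, 11.6 and 15.6 CPM in endothelial cells. The endothelial mean was 0.116 times that of fibroblasts (log2 -3.11, SE 0.23, FDR = 1.6e-09), with no overlap among the populations. Ace measured 74.7, 79.5, 87.1 and 125 CPM in fibroblasts, 9.85 to 14.9 CPM in cardiomyocytes and 5.21 to 13.4 CPM in endothelial cells. Fibroblasts stood apart from both, and endothelial cells and cardiomyocytes overlapped (FDR = 0.127). Ptgs2, the inducible cyclooxygenase, was low throughout, at means of 7.60 CPM in fibroblasts, 4.41 CPM in endothelial cells and 1.60 CPM in cardiomyocytes. Its only called difference was that of fibroblasts from cardiomyocytes (log2 2.26, SE 0.60, FDR = 0.00409). Agtr1a was too low for the test. It measured 4.92 to 8.61 CPM in Sham cardiomyocytes, 1.53 to 4.13 CPM in fibroblasts and at most 1 count per library in endothelial cells.

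**Figure D2:**
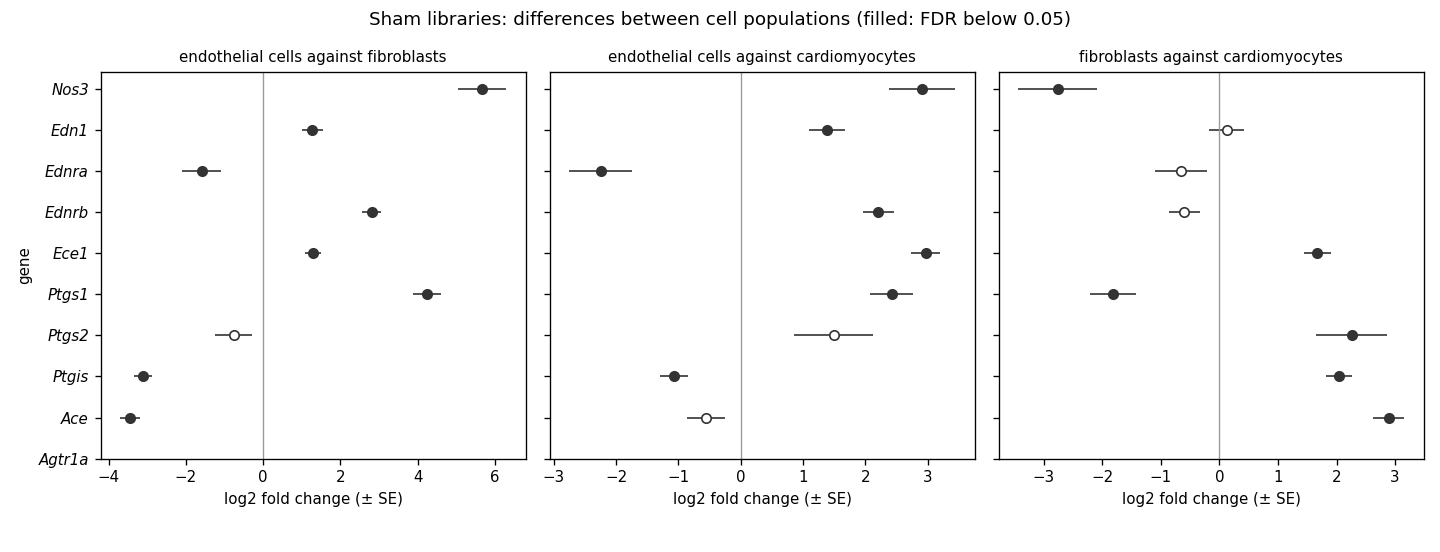
Log2 differences between cell populations in Sham hearts are plotted for each tested member, with bars of 1 SE and filled circles where the FDR was below 0.05. Nos3 and Ptgs1 lie farthest right in the comparison of endothelial cells with fibroblasts, and Ptgis and Ace farthest left.

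Of 46 further genes of the same pathways, 27 were tested between Sham populations. Between endothelial cells and fibroblasts 8 were higher and 11 lower, where 40.7% of all genes passed. By strength of evidence the first 5 were Mme, Ptgir, Ptgfr, Slco2a1 and Ddah2. Mme encodes neprilysin, which degrades endothelin, and measured 65.8 CPM in fibroblasts and 0.937 CPM in endothelial cells. The prostacyclin receptor Ptgir measured 38.4 CPM in fibroblasts and 1.51 CPM in endothelial cells, and the prostaglandin F receptor Ptgfr 12.9 CPM and 0.520 CPM. The prostaglandin transporter Slco2a1 was higher in endothelial cells, at 34.4 against 3.36 CPM. Ddah2, of the family that degrades methylated arginine inhibitors of nitric oxide synthase, was lower, at 59.5 against 162 CPM. Against cardiomyocytes, 7 of the 27 were higher in endothelial cells and 6 lower, where 57.5% of all genes passed. In fibroblasts 9 were higher than in cardiomyocytes and 5 lower, where 52.2% of all genes passed. In both comparisons with cardiomyocytes, the prostaglandin D synthase Ptgds had the strongest evidence. It measured 416 CPM in cardiomyocytes, 1.30 CPM in endothelial cells and 1.22 CPM in fibroblasts.

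Infarction was compared within each population. In endothelial cells 2 of 8 tested members rose from Sham to Control-AMI, Ptgis and Ace, and none fell, where 6.56% of all genes passed. DESeq2 called the same 2 members, and 8.52% of all genes. The median of the 8 was 0.08 on the log2 scale against -0.02 over all genes. Ptgis measured 16.8, 28.1, 11.6 and 15.6 CPM in Sham, 71.9, 57.0, 31.7 and 48.1 CPM in Control-AMI and 20.8, 39.4, 14.5, 20.9 and 14.1 CPM in EMPA-Pre-AMI. All Control-AMI libraries lay above all Sham libraries, and the rise was 2.84-fold (log2 1.51, SE 0.33, FDR = 0.0113). Ace measured 5.84, 13.4, 7.66 and 5.21 CPM in Sham, 33.5, 14.9, 21.4 and 20.4 CPM in Control-AMI and 10.9, 12.2, 13.1, 10.4 and 11.8 CPM in EMPA-Pre-AMI. Control-AMI again did not overlap with Sham, and the rise was 2.73-fold (log2 1.45, SE 0.30, FDR = 0.00484).

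Ptgis and Ace were the 2 members highest in fibroblasts, and the fibroblast markers moved with them. Control-AMI replicate 1 had the most fibroblast markers (9334 CPM) and the highest Ptgis and Ace, and replicate 4 had the next most (5003 CPM), with Ptgis at 48.1 CPM and Ace at 20.4 CPM. The remaining replicates, 2 and 3, held 2210 and 2715 CPM of these markers, still above every Sham library, with Ptgis at 57.0 and 31.7 CPM and Ace at 14.9 and 21.4 CPM. Without replicates 1 and 4, 0 members were called, and Ptgis (FDR = 0.102) and Ace (FDR = 0.101) had log2 differences of 1.29 and 1.14. Those 2 libraries also share the run of sample numbers (number series 4) that holds no other endothelial library, and with a term for the number series 0 members were called as well, at log2 differences of 1.19 for Ptgis (FDR = 0.163) and 1.07 for Ace (FDR = 0.121). Leaving out any single endothelial library kept both calls. Whether the endothelial cells themselves or fibroblast RNA in the libraries gave the rise was not tested.

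**Figure D3:**
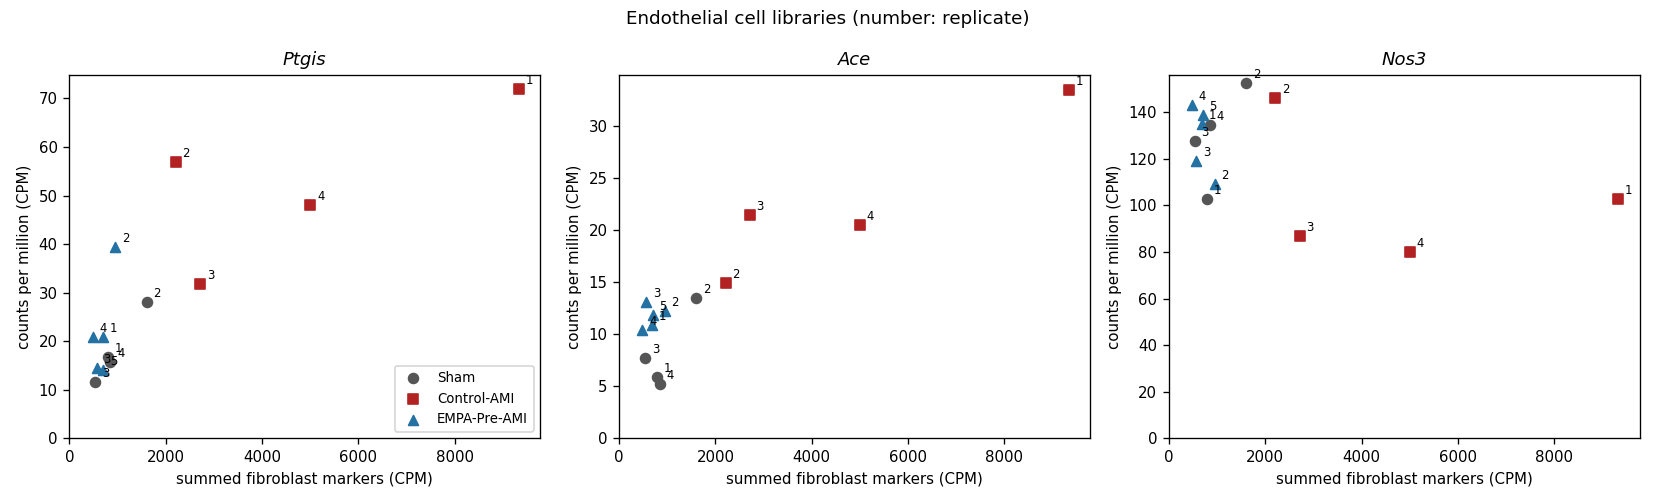
For the 13 endothelial libraries, Ptgis, Ace and Nos3 in CPM are plotted against the summed CPM of 12 fibroblast markers, each point labelled with its replicate number and coloured by group. The 4 Control-AMI libraries lie at 2210 to 9334 CPM of markers, to the right of all others, and replicate 1 is highest in Ptgis and Ace.

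The members that were highest in endothelial cells did not pass the test there. Nos3 was 103, 146, 87.0 and 80.1 CPM in Control-AMI against a Sham mean of 129 ± 20.7 CPM (SD, n = 4), with a log2 difference of -0.34 (SE 0.18, FDR = 0.304) and overlapping groups. Ece1 gave a log2 difference of -0.39 (SE 0.27, FDR = 0.462). Edn1, Ednrb and Ptgs1 lay within 0.13 of no difference on the log2 scale, with SEs of 0.22 to 0.26. Ptgs2 averaged 6.41 CPM against 4.41 CPM, and 1 Control-AMI library, replicate 2, stood at 16.0 CPM while the other 3 were at 2.00 to 3.86 CPM. Ednra and Agtr1a were too low to test in endothelial cells.

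With empagliflozin, 1 of the 8 tested members fell in endothelial cells relative to Control-AMI, where 2.63% of all genes passed. Ptgis was 0.428 times its Control-AMI level (log2 -1.22, SE 0.31, FDR = 0.0417), but EMPA-Pre-AMI replicate 2, at 39.4 CPM, lay inside the Control-AMI range. Ace did not overlap between these groups, with EMPA-Pre-AMI at 10.4 to 13.1 CPM and Control-AMI at 14.9 to 33.5 CPM, and it did not pass the test (log2 -0.93, SE 0.27, FDR = 0.0828), but passed in DESeq2, which called Ptgis and Ace and 3.29% of all genes, and in edgeR without Sham replicate 2 (FDR = 0.0430) or Control-AMI replicate 2 (FDR = 0.0269). The call of Ptgis was lost when any of 8 single libraries was left out (Sham 1, Control-AMI 1, 2 and 4, EMPA-Pre-AMI 1, 3, 4 and 5), with FDRs of 0.0626 to 0.165, in the fit without number series 4 (log2 -1.02, FDR = 0.528) and with a term for the number series (log2 -0.87, FDR = 0.857). Nos3 averaged 129 ± 14.3 CPM (SD, n = 5) with empagliflozin and did not pass (log2 0.33, SE 0.17, FDR = 0.44). Against Sham, 0 of 8 members passed in EMPA-Pre-AMI, where 2.71% of all genes did, and Ace came nearest (log2 0.52, SE 0.29, FDR = 0.45, unadjusted p = 0.091 in edgeR's test). There 0 members had an unadjusted p under 0.05 in edgeR, where 14.1% of all genes lay, and DESeq2 called 0 members and 4.03% of all genes. EMPA-Pre-AMI and Sham share the low fibroblast marker level given above.

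Among the further pathway genes 22 were tested in endothelial cells. In edgeR 1 of them, Mme, differed between Control-AMI and Sham, where 6.56% of all genes passed. It rose from 0.937 to 17.0 CPM (log2 4.19, SE 0.67, FDR = 0.000926). Mme was also the 1 gene of the 22 called between EMPA-Pre-AMI and Control-AMI, where 2.63% of all genes passed. It was 1.00 CPM in EMPA-Pre-AMI (log2 against Control-AMI -4.01, SE 0.60, FDR = 0.00206). Without number series 4 neither difference passed, at log2 values of 2.43 (FDR = 0.133) and -2.28 (FDR = 0.372). With a term for the number series the first passed at 2.46 (FDR = 0.0372) and the second, at -2.29, did not (FDR = 0.223). DESeq2 called Mme in both comparisons and, in the first, also Lnpep, a peptidase that binds angiotensin IV, which was 61.1 CPM in Sham and 86.1 CPM in Control-AMI without overlap (edgeR FDR = 0.0668). This neprilysin gene was also the pathway gene with the strongest evidence of a higher level in Sham fibroblasts than in Sham endothelial cells. Between EMPA-Pre-AMI and Sham edgeR called 0 of the 22, with 3 at an unadjusted p under 0.05, and DESeq2 called 0. The shares of all genes there were 2.71%, 14.1% and 4.03%.

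**Figure D4:**
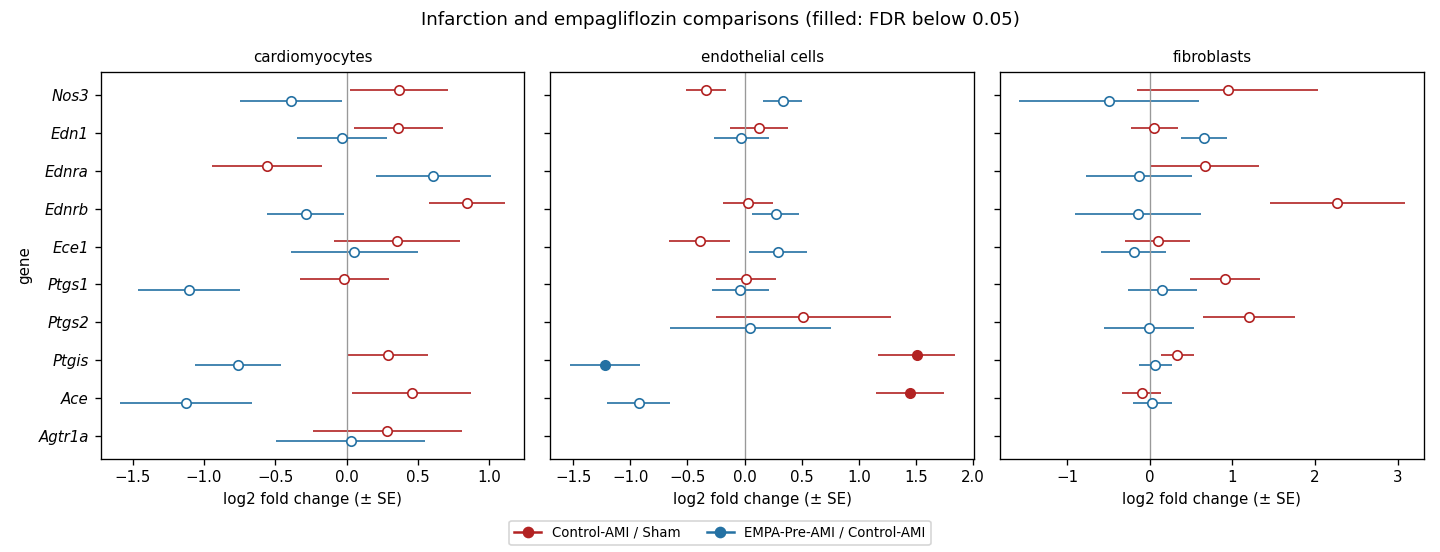
For each population, log2 differences of the tested members are plotted with bars of 1 SE, Control-AMI against Sham in red and EMPA-Pre-AMI against Control-AMI in blue, and filled circles where the FDR was below 0.05. Filled circles appear in endothelial cells for Ptgis in both comparisons and for Ace in the first, and in no other population.

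In fibroblasts 0 of 9 tested members passed between Control-AMI and Sham in edgeR, where 4.16% of all genes did. At an unadjusted p under 0.05 there were 2 of 9, Ednrb and Ptgs1, where 19.2% of all genes lay, and DESeq2 called 1, Ednrb, and 7.22% of all genes. The median of the 9 was 0.67 on the log2 scale against -0.03 over all genes. Replicates 1 to 4 lay in number series 4, 1, 1 and 1 in Sham fibroblasts, 4, 4, 4 and 1 in Control-AMI and 3, 4, 4 and 1 in EMPA-Pre-AMI. Series and infarction thus partly coincide, and with a term for the series edgeR called 819 genes in place of 445. The largest difference was in Ednrb, at 12.2, 15.0, 18.9 and 6.92 CPM in Sham, 20.4, 33.4, 19.2 and 185 CPM in Control-AMI and 27.5, 34.1, 57.9 and 112 CPM in EMPA-Pre-AMI. Every library of both infarcted groups was above every Sham library, but the spread among them was wide and the log2 difference of 2.27 (SE 0.82) did not pass (FDR = 0.162, unadjusted p = 0.0194 in edgeR's test). With a term for the number series it passed, at a log2 difference of 2.55 (FDR = 0.0389), and so did EMPA-Pre-AMI against Sham, at 2.88 (FDR = 0.0288). In series 1, which held Sham replicates 2, 3 and 4, the infarcted libraries were replicate 4 of Control-AMI and of EMPA-Pre-AMI. Both were the highest of their groups in Ednrb and in mural cell markers, and their weight in these passes was not tested. Control-AMI replicate 4 was 185 CPM, and without it the log2 difference was 0.88 (FDR = 0.301). Its mural cell markers summed to 4277 CPM, against 669 to 1058 CPM in the other Control-AMI libraries. Ednra (32.3 CPM), Ece1 (301 CPM) and Agtr1a (7.66 CPM) were also at their highest fibroblast level in that library. In EMPA-Pre-AMI the 2 libraries highest in Ednrb, replicates 4 and 3, were also highest in mural markers, at 2272 and 1977 CPM. Sham replicate 3 had 2058 CPM of mural markers and 18.9 CPM of Ednrb, the highest of its group and below all infarcted libraries. Without the library richest in mural markers of each group, an alternative chosen after seeing the data, the log2 difference of Ednrb from Sham was 1.10 in Control-AMI (FDR = 0.0948) and 1.80 in EMPA-Pre-AMI, where it passed (FDR = 0.0130).

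**Figure D5:**
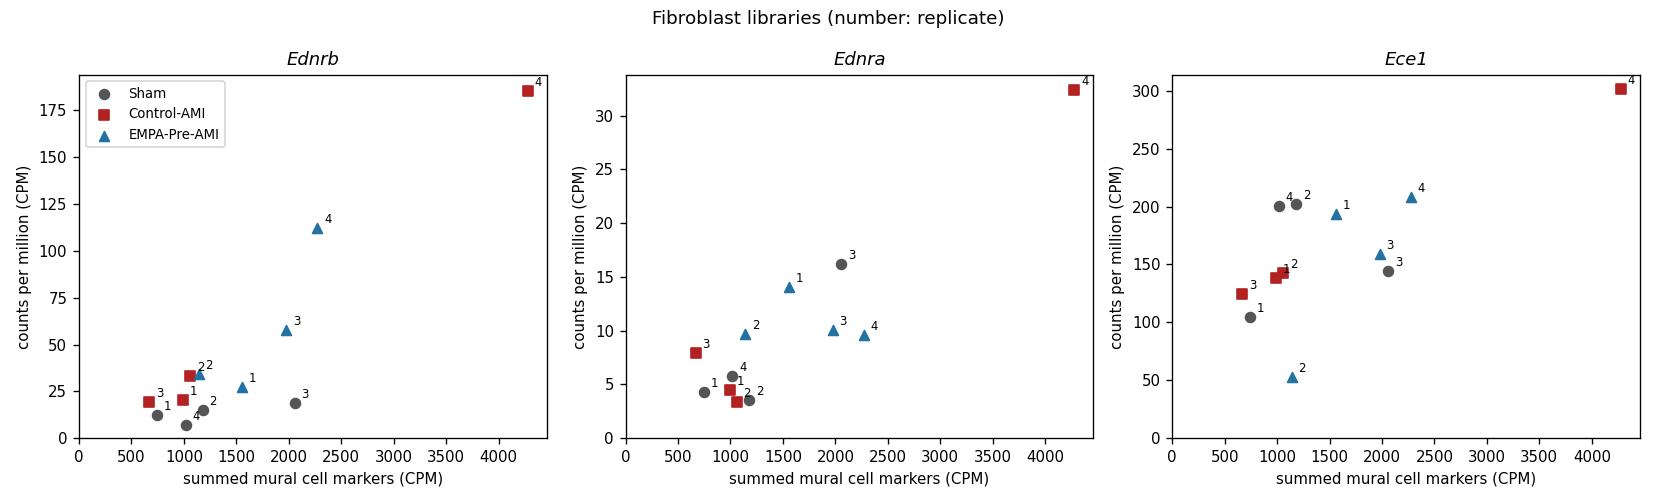
For the 12 fibroblast libraries, Ednrb, Ednra and Ece1 in CPM are plotted against the summed CPM of 10 mural cell markers, each point labelled with its replicate number and coloured by group. Control-AMI replicate 4, at 4277 CPM of markers, is the highest point of all 3 genes.

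The other fibroblast members also missed the threshold. Ptgs2 measured 8.42, 5.60, 2.07 and 14.3 CPM in Sham and 10.2, 17.5, 23.8 and 20.7 CPM in Control-AMI, which overlap (log2 1.20, SE 0.56, FDR = 0.262). Ptgs1 averaged 9.66 CPM against 5.07 CPM (log2 0.91, SE 0.43, FDR = 0.254). In replicate order it was 5.87, 9.13, 2.07 and 3.23 CPM in Sham and 9.67, 10.5, 11.9 and 6.53 CPM in Control-AMI. Endothelial markers of the same libraries summed to 484, 444, 110 and 106 CPM and to 506, 561, 575 and 164 CPM. The part of these markers in the Ptgs1 level of fibroblasts was not tested. Ptgis did not overlap, at 177 to 232 CPM in Control-AMI and 142 to 168 CPM in Sham, with a small difference (log2 0.33, SE 0.20, FDR = 0.384). Ace was nearly level, at 86.8 ± 18.1 CPM against 91.7 ± 23.0 CPM (SD, n = 4 each), with a log2 difference of -0.10 (SE 0.23).

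EMPA-Pre-AMI and Control-AMI fibroblasts differed in 0 of 9 members and in 0% of all genes. At an unadjusted p under 0.05 edgeR gave 170 genes (1.59%), of which 1 was a member, Edn1, and DESeq2 called 0 members. Edn1 measured 31.7, 47.4, 34.5 and 28.6 CPM with empagliflozin and 19.3, 16.9, 36.0 and 18.7 CPM in Control-AMI, where replicate 3 lay inside the empagliflozin range (log2 0.65, SE 0.28, FDR = 1). Against Sham, EMPA-Pre-AMI fibroblasts differed in 0 of 9 members, where 5.11% of all genes passed. Ednrb had a log2 difference of 2.12 (SE 0.82, FDR = 0.179), Edn1 of 0.71 (SE 0.28, FDR = 0.163) and Ptgs1 of 1.06 (SE 0.43, FDR = 0.172), and these 3 of 9 were the members with an unadjusted p under 0.05 in edgeR's test, where 20.8% of all genes lay. DESeq2 called 0 members, and 8.03% of all genes. In replicate order Ptgs1 was 5.29, 16.2, 9.35 and 12.0 CPM in EMPA-Pre-AMI fibroblasts. Their endothelial markers summed to 164, 604, 573 and 122 CPM, and the part of these in Ptgs1 was not tested.

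Among the further pathway genes 26 were tested in fibroblasts, and those that passed belong to the prostanoid and nitric oxide pathways. Of the 26, 3 rose and 1 fell from Sham to Control-AMI, where 4.16% of all genes passed. Ptger4, a receptor for prostaglandin E2, rose from 17.2 to 81.1 CPM (log2 2.21, SE 0.42, FDR = 0.0098). Slco2a1, which carries prostaglandins into cells, rose from 3.36 to 16.2 CPM (log2 2.25, SE 0.37, FDR = 0.00239). Slc7a1, a transporter of arginine, rose from 32.9 to 71.5 CPM (log2 1.10, SE 0.19, FDR = 0.00269). The prostacyclin receptor Ptgir fell from 38.4 to 20.6 CPM (log2 -0.91, SE 0.25, FDR = 0.046), a call that was lost when any of 9 single libraries was left out (Sham 2, 3 and 4, Control-AMI 1 to 4, EMPA-Pre-AMI 2 and 3), with FDRs of 0.0565 to 0.145. None of these 4 genes overlapped between the 2 groups. In edgeR the 4 were also the genes called between EMPA-Pre-AMI and Sham, where 5.11% of all genes passed. With empagliflozin Ptger4 was at 69.8, Slco2a1 at 14.7, Slc7a1 at 72.5 and Ptgir at 18.1 CPM. DESeq2 called these 4 and Ddah2, which averaged 162 CPM in Sham and 99.4 CPM in EMPA-Pre-AMI (edgeR FDR = 0.0805). Both comparisons share the Sham libraries. Against Sham, Ptger4 (FDR = 0.0528 and 0.0563) and Ptgir (FDR = 0.0586 and 0.0676) did not pass in EMPA-Pre-AMI without Sham replicate 3 or 4. Between EMPA-Pre-AMI and Control-AMI edgeR called 0 of the 26, with 1 at an unadjusted p under 0.05, and DESeq2 called 0. The shares of all genes there were 0%, 1.59% and 0%.

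In cardiomyocytes 0 of 9 tested members passed in any of the 3 comparisons in edgeR. At an unadjusted p under 0.05 there were 1, 3 and 1 members between Control-AMI and Sham, EMPA-Pre-AMI and Control-AMI, and EMPA-Pre-AMI and Sham, where 2.72%, 25.0% and 18.2% of all genes lay. DESeq2 called 0, 1 (Ptgs1) and 0 members, and 0.207%, 9.60% and 2.19% of all genes. In edgeR the shares of all genes passing were 0.0655%, 0.0218% and 0.338% in the same order. Those for empagliflozin depended on single libraries. Without EMPA-Pre-AMI replicate 4 edgeR called 1498 genes in place of 2 against Control-AMI, with Ace among them, and 943 in place of 31 against Sham, with no member. Without EMPA-Pre-AMI replicate 1 it also called more genes against Control-AMI, with no member. Ednrb was 21.2, 22.4, 17.2 and 19.0 CPM in Sham and 34.4, 38.1, 38.1, 38.8 and 28.9 CPM in Control-AMI. The 2 groups did not overlap, and the log2 difference of 0.84 (SE 0.27) had an FDR of 0.781 (unadjusted p = 0.00494 in edgeR's test). EMPA-Pre-AMI spanned 16.2 to 46.2 CPM and overlapped both. Ednrb was the member with an unadjusted p under 0.05 between Control-AMI and Sham.

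With empagliflozin Ptgs1 was lower in cardiomyocyte libraries, at 9.01, 8.20, 5.77 and 8.89 CPM against 12.1, 24.6, 10.7, 23.7 and 15.9 CPM in Control-AMI. The groups did not overlap, and the log2 difference of -1.11 (SE 0.36) did not pass (FDR = 0.0816, unadjusted p = 0.00584 in edgeR's test). In this comparison 25.0% of all genes had an unadjusted p under 0.05 in edgeR. Over the alternatives the FDR of Ptgs1 ran from 0.0473 to 0.999. A library held 7 to 11 counts of Ptgs1 with empagliflozin. Ptgis (log2 -0.76, SE 0.30, FDR = 0.131) and Ace (log2 -1.13, SE 0.46, FDR = 0.143) had the same sign and also an unadjusted p under 0.05, and their groups overlapped. EMPA-Pre-AMI replicates 1 and 3 were lowest in Ptgis, at 15.8 and 16.0 CPM, and had the least fibroblast markers of all cardiomyocyte libraries, 1386 and 851 CPM. Replicates 2 and 4, with Ptgis at 42.2 and 33.9 CPM, held 5026 and 4077 CPM of fibroblast markers. Ptgs1 was highest in endothelial cells among the Sham populations. In replicate order, endothelial markers were 1931, 2646, 1138 and 1343 CPM in EMPA-Pre-AMI cardiomyocyte libraries. In Control-AMI they were 1794, 2656, 1394, 2380 and 1483 CPM. The part of these markers in the Ptgs1 difference was not tested. In all, 3 of the 4 EMPA-Pre-AMI libraries lay in number series that hold no Sham or Control-AMI cardiomyocyte library, so for these libraries series and treatment cannot be told apart. Ednra, Ptgs2 and Agtr1a were low in cardiomyocytes, with Ednra at 2.88 to 16.4 CPM, Ptgs2 at 0 to 3.51 CPM and Agtr1a at 0 to 14.7 CPM. Ptgs2 was below the filter and not tested. Of 22 further pathway genes tested, 0 passed in edgeR in each of the 3 cardiomyocyte comparisons. In the order above, 2, 7 and 5 had an unadjusted p under 0.05, to be read against the shares of all genes given above, and DESeq2 called 0, 1 (Ptgds) and 0.

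Whether infarction moved the members differently in endothelial cells and fibroblasts was tested as an interaction over all 38 libraries. Of 10 members, 1 differed, where 3.22% of all genes did. The infarction effect on Ace was more positive in endothelial cells than in fibroblasts, by 1.55 on the log2 scale (SE 0.43, FDR = 0.0365). Leaving out any of 10 single libraries ended this call (endothelial Sham 1, 3 and 4 and Control-AMI 1 and 4, fibroblast Sham 3 and 4 and Control-AMI 1, 2 and 3), with FDRs of 0.05001 to 0.166, and without the endothelial libraries of number series 4 it had an FDR of 0.357. DESeq2 called Ace and Ednrb, and 4.31% of all genes. In edgeR Ednrb gave -2.23 (SE 0.69, FDR = 0.0714) and Ptgis 1.18 (SE 0.40, FDR = 0.107), and neither passed. For the empagliflozin effect 0 of 10 members differed between the populations, where 2.04% of all genes did, with Ptgis nearest (log2 -1.31, SE 0.39, FDR = 0.0659). Ptgis and Ace were the 2 members with an unadjusted p under 0.05 there in edgeR, where 8.09% of all genes lay, and DESeq2 called 0 members and 2.52% of all genes.

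Of 30 further pathway genes, 3 had a more positive infarction effect in endothelial cells (Mme, Ptgir and Ptges) and 3 a more positive one in fibroblasts (Ptger4, Slc7a1 and Slco2a1). Over all genes 3.22% passed this test. The first 5 pathway genes by evidence were Mme (log2 4.31, SE 0.67), Ptger4 (log2 -2.21, SE 0.46), Ptgir (log2 2.52, SE 0.64), Slc7a1 (log2 -1.08, SE 0.28) and Ptges. No fold is given for Ptges, since it had no count in the 4 Sham endothelial libraries and at most 6 counts in a Control-AMI one. For the empagliflozin effect 3 were lower in endothelial cells, Mme (log2 -3.97, SE 0.63), Ptgfr and Ece2, where 2.04% of all genes passed. Ptgfr and Ece2 had no count in the 5 EMPA-Pre-AMI endothelial libraries and at most 14 and 16 counts in a Control-AMI one, so no fold is given. Mme, Ptgir, Ptges, Ptgfr and Ece2 averaged 65.8, 38.4, 4.37, 12.9 and 2.91 CPM in Sham fibroblasts. In Sham endothelial cells they averaged 0.937, 1.51, 0, 0.520 and 0 CPM. The higher fibroblast markers of Control-AMI endothelial libraries stand beside these differences, and their part was not tested. Without the endothelial libraries of number series 4, the genes called among all tested fell from 389 to 57 for the infarction effect and from 247 to 12 for the empagliflozin effect.

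For each member, the gene whose level ran most like it over the 38 libraries was listed. Pearson's r of log2 CPM was 0.979 for Nos3 with Ptprb and 0.956 for Ptgs1 with Thsd1. It was 0.974 for Ptgis with Pdpn and 0.961 for Ace with Slc1a5, and in the endothelin set 0.927 for Ece1 with St3gal1 and 0.914 for Ednrb with Gcnt2. Weaker likenesses were found for Agtr1a with Wipi1 (0.888), Ednra with Klhl23 (0.859) and Edn1 with Tcf23 (0.844), and the lowest r of these was that of Ptgs2 with Eif4a1. These correlations are descriptions, since libraries share the 3 populations and their depth.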

How the data were processed

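Libraries were made with a 3′ tag kit (QuantSeq 3′ FWD) and sequenced on a NextSeq 550. The authors trimmed reads with cutadapt 2.8 and deposited expected counts per gene, estimated with Salmon (version not given in the sources used here) against GRCm39, in 1 table. All 38 columns matched a labelled library, and 0 were left unmapped. The counts were rounded. Within each population edgeR 4.0.16 (R 4.3.3) was run with filterByExpr (minimum count 10), TMM factors and robust quasi-likelihood tests over 3 groups, and p-values were adjusted by Benjamini-Hochberg over all tested genes. Sham populations were fitted over 12 libraries and interactions over 38, with no term for hearts shared between populations. SEs were derived from the F statistics. Printed CPM use TMM factors over all 38 libraries, so folds from a fit can differ slightly from ratios of means. DESeq2 1.42.0, RLE factors, other filters, a replicate block, the number series and leaving out libraries were alternatives. Fits were also run on simulated counts, drawn with the same spread for all genes, independent libraries and no number series. That run cannot show how the fits behave on these libraries.

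Number series are ascending runs of the sample numbers in the labels, whose meaning is not given there. Sorted by that number, libraries fall into 4 runs. Per the study's methods each library pooled 2 hearts and replicates were independent experiments. Their 62 within-group pairs differed by more than sampling noise. Named pathway genes were those past the threshold, up to 5 per comparison by p. Members and gene lists were chosen with earlier results of these data known.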

Additional observations from a re-analysis of the deposited data

Results flagged for a closer look

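Of 90 groups of member levels (10 genes in 9 groups), 10 held a library far from the others in the group. About 1 in 20 such groups would be marked by chance if values were normally spread. For low or skewed counts that rate was not established. In fibroblast Control-AMI, replicate 4 stood alone in Ednra (32.3 CPM), Ednrb (185 CPM), Ece1 (301 CPM) and Agtr1a (7.66 CPM), and this is the library with 4277 CPM of mural cell markers. In the same group replicate 3 stood alone in Edn1 (36.0 CPM). In EMPA-Pre-AMI fibroblasts replicate 1 was apart in Ednra (14.1 CPM), and in Sham fibroblasts replicate 1 was the low library in Ptgis (142 CPM against 165 CPM or more). In endothelial cells Control-AMI replicate 2 was apart in Ptgs2 (16.0 CPM, 43 counts), EMPA-Pre-AMI replicate 2 in Ptgis (39.4 CPM) and Control-AMI replicate 1 in Agtr1a (1.45 CPM, 5 counts, the other libraries of the group being at 0). That last library also held the most fibroblast markers of all endothelial libraries.

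The infarction effect on Ace differed between endothelial cells and fibroblasts by 1.55 on the log2 scale, with Ace up in the 4 endothelial Control-AMI libraries relative to Sham and overlapping in fibroblasts. The fibroblast marker level of the endothelial libraries differed between the same groups, and its part was not tested.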

How the results depend on the processing

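No fold change of a called member changed sign under any alternative run, nor did those of Mme in endothelial cells and of Ptger4, Ptgir, Slc7a1 and Slco2a1 in fibroblasts within each population. The other pathway genes were not followed through the alternatives. Counts of members called moved beyond 1.5 times as follows. In endothelial cells, Control-AMI against Sham gave 2 members, and 0 both with a term for the number series and without number series 4. EMPA-Pre-AMI against Control-AMI gave 1, then 2 with DESeq2 and with no filter, 0 with the number series term and without number series 4, and 0 to 2 when single libraries were left out. In fibroblasts, Control-AMI against Sham gave 0, and 1 (Ednrb) with DESeq2 and with the number series term. EMPA-Pre-AMI against Sham gave 0, and 1 (Ednrb) with only the 2 groups compared, with the number series term and without the 3 libraries richest in mural markers (an alternative chosen after seeing the data), and 0 to 1 when single libraries were left out. In cardiomyocytes, EMPA-Pre-AMI against Control-AMI gave 0, then 1 with DESeq2 (Ptgs1), and 0 to 1 when single libraries were left out (Ace without EMPA-Pre-AMI replicate 4). The infarction interaction gave 1, then 2 with DESeq2 (Ace and Ednrb), 0 without number series 4 in endothelial cells and 0 to 2 when single libraries were left out, and the empagliflozin interaction gave 0, and 0 to 1 when single libraries were left out. Counts over all genes moved too. In cardiomyocytes Control-AMI against Sham called 6 genes, 19 with DESeq2, 14 with no filter, 20 both with only the 2 groups compared and with the number series term, and 3 with the replicate block. EMPA-Pre-AMI against Control-AMI called 2, then 880 by DESeq2, 338 unfiltered, 284 where each library had to hold 10 counts or more, 0 with only 2 groups, the series term or the block, and 0 to 1498 when single libraries were left out. EMPA-Pre-AMI against Sham called 31, then 201 by DESeq2, 94 unfiltered, 19 with only 2 groups, 2 with the series term and 14 to 943 without single libraries. In endothelial cells Control-AMI against Sham called 685, then 234 with the series term, 232 without number series 4 and 341 without Sham replicate 3. EMPA-Pre-AMI against Control-AMI called 274, then 458 with no filter, 125 with at least 10 counts, 149 with the block, 9 with the series term, 38 without number series 4 and 136 without Control-AMI replicate 1, and against Sham 283, then 159 without Sham replicate 3. In fibroblasts Control-AMI against Sham called 445, then 772 with DESeq2, 819 with the series term and 228 without Sham replicate 2. EMPA-Pre-AMI against Sham called 546, then 858 by DESeq2, 985 with the series term, 264 without Sham replicate 2 and 337 without the 3 libraries richest in mural markers. Apart from the alternatives that remove libraries or add a term, the cause was not tested.

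Whether replicate numbers pair libraries was checked within each population. The correlation of same-numbered libraries was over 0.1 in 0 of 12 pairs in cardiomyocytes and 3 of 12 in endothelial cells. In fibroblasts it was over 0.1 in 6 of 12 pairs and reached 0.455. The fibroblast median was 0.0956, against -0.0181 for pairs with different numbers. A pairing of some fibroblast libraries is thus possible, and the main fits held no replicate term. Same-numbered fibroblast libraries can also share a number series, as replicate 4 of every group does (series 1). Pairing and series cannot be told apart by this check. With the replicate block, the empagliflozin interaction called 1 member (Ptgis), and the counts of the other 13 results stayed within 1.5 times. Low counts limit Agtr1a, Ptgs2 and Ednra in endothelial cells, where no library held more than 5 counts of Agtr1a, 45 of Ptgs2 or 16 of Ednra.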
